A study of Rattus norvegicus with 4 samples.

Results

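Integrins are the cell surface receptors, each a pair of an alpha and a beta chain, that tie cells to the extracellular matrix or to other cells. Laminins are trimers of an alpha, a beta and a gamma chain that form the sheet of the basement membrane to which epithelial and endothelial cells attach. The genes described here were chosen by symbol, as those named for an integrin alpha or beta chain or for a numbered laminin alpha, beta or gamma chain. The rule matched 32 of the 14871 named genes on the array, through 67 of 45220 array features (single spots of 1 probe). They are 22 integrin chains, 7 laminin chains and 3 genes whose symbols begin in the same way but which encode no chain. Itgal, Itgam, Itgae, Itgb2 and Itgb7, whose products are found mainly on leukocytes, were kept apart from the other 24 chains. Itgad pairs with the same beta chain as Itgal and Itgam but is outside that named set, and it is described beside them.

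The RNA came from kidney allografts in Lew rats. The recipients received either an ApoE-mimetic peptide at 6 mg/kg or a control peptide, by a daily intravenous injection from the day of transplantation, and the grafts were taken on day 4. Both groups therefore carried a transplanted kidney, and no untransplanted kidney is among the samples; the sources used here do not give the donor strain or the age. Each of 4 biological replicates was 1 array on which RNA of both groups was hybridised together, with the ApoE-mimetic RNA labelled with Cy5 on replicates 1 and 3 and with Cy3 on replicates 2 and 4. A graft slice holds cells of the donor kidney and cells of the recipient that have entered it, and with bulk RNA, fewer cells of a type and less RNA per cell cannot be told apart.

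In the kidney, integrins that hold the beta1 chain join podocytes, tubules and mesangial cells to their matrix. The alpha6beta4 integrin anchors epithelial cells to laminin in hemidesmosomes, and alphavbeta6, an epithelial integrin, activates latent TGF-beta. On leukocytes, alphaLbeta2 (LFA-1) and alphaMbeta2 (Mac-1) bind ICAM-1, and the alpha4 integrins bind VCAM-1, which lets blood cells leave the vessel. The alphaEbeta7 integrin holds T cells to epithelial cadherin on tubules.

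The start regions of 3 genes are shown because the results below turn on them: Itgb1 has the most repeated measurement, Lamb3 has the largest single ratio among features that are neither dim nor saturated, and Itgam is a leukocyte integrin. Each runs from 250 bases before to 50 bases after the gene's start in RefSeq's GRCr8 assembly, which holds such a region for 24 of the 32 genes. Capitals mark GAGGAA, the core of sites for the myeloid and lymphoid factor PU.1, and GGGCGG, the GC box bound by Sp1, on either strand, so that TTCCTC and CCGCCC are the same motifs read on the other strand.

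Itgb1, chr19:73602027-73602326, plus strand: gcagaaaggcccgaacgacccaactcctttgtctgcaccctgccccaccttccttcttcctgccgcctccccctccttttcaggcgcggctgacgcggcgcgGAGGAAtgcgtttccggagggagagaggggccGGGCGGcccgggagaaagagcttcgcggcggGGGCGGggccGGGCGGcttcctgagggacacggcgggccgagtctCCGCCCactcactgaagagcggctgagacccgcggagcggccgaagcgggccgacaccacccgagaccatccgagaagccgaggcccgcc
Lamb3, chr13:107362303-107362602, plus strand: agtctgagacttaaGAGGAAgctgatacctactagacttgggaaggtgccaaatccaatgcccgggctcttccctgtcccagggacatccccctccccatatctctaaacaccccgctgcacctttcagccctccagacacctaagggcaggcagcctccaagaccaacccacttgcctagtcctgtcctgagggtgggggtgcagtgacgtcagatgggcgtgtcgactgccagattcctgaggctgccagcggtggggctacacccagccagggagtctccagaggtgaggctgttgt
Itgam, chr1:192089342-192089641, plus strand: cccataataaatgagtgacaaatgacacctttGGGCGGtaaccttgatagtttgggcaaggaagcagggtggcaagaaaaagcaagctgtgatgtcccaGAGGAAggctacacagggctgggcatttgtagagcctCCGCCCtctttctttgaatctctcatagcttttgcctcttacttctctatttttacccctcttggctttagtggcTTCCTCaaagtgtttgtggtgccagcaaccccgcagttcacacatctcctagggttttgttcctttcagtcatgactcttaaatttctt

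The Itgb1 region held 4 GC boxes and 1 PU.1 core, the Itgam region 2 of each, and the Lamb3 region 1 PU.1 core and 0 GC boxes. The GC box was present in 11 of the 24 regions and the PU.1 core in 10, against 34.9% and 27.5% of 27457 regions of the same length. These matches are descriptions of letters, not sites of binding. No region was printed for the other genes, and Itga6, Itga7, Itgad, Itgal, Itgb2, Itgb3, Itgb4 and Lamb2 were not matched.

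The deposited values are ratios of the channels of each array on a log scale, read here as log2, and the sources used here give neither the log base nor the direction. Ratios give no level of expression, so neither the tissue nor the abundance of a gene can be checked from them. Every value below is the deposited log2 ratio minus that of the array's median gene, so 0 is the median gene. Read as Cy5 over Cy3, replicates 2 and 4 must be turned in sign to give ApoE-mimetic over control. If the submitters had already turned them, the values give that ratio as they stand. Replicates 1 and 3, which share a dye orientation, correlated at r = -0.657 over the 13363 clear features (neither dim nor saturated, as explained next) and at -0.238 over all 45220. Both arrays keep their sign under both readings, so this does not choose between them. As deposited, the clear features of arrays of opposite orientation correlated at -0.426 for replicates 1 and 2, 0.393 for 1 and 4, 0.423 for 2 and 3, and -0.267 for 3 and 4. These signs turn under the first reading, so under either reading 2 of the 4 correlations are negative. Features are not independent replicates, so these are descriptions. The direction is unsettled, each comparison is given under both readings, and all signs turn if Cy3 is the numerator. Values below are in the order of replicates 1 to 4 with their deposited sign.

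A feature was taken as dim where 3 or more features on an array held exactly its value, and as saturated where it held the shared value next to 0. By this measure 51.3% to 62.0% of features per array were dim or saturated. Among the integrin and laminin genes, 16 of 32 had a feature that was neither on any array, termed clear features. Itga10, Itga11, Itgb2, Itgb3, Itgb8 and Lama4 had no measured feature on any array, so their ratios carry little or no signal of the gene. Replicate 4 had a wider spread of genes than the others (SD 1.26 against 0.87 to 0.89), and its median ratio shifted across the slide surface from -0.81 in the first 10 grid columns to 0.45 in the last 10.

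None of the 32 genes passed the test between the peptides (limma, Benjamini-Hochberg over 14871 genes). Their adjusted p was 0.9998 when read as Cy5 over Cy3 and at least 0.9989 when read as already turned. Over all genes 0% passed under either reading. At an unadjusted p under 0.05, 0 of 32 were reached under the first reading, against 3.67% of all genes, and 3 of 32 (9.38%) under the second, against 3.31%. Those 3 were Itga10, Itgad and Itgb1, of which only Itgb1 had a clear feature. The same sign on all 4 arrays was found for 1 of 32 genes (Lama4) under the first reading, against 10% of all genes. Under the second it was found for 6 of 32 (Itga6, Itga10, Itga11, Itgad, Itgb1 and Itgb6), or 18.8%, against 11.4%. In clear features it was found for 1 of 16 genes (Lamb3) under the first reading, against 7.15% of the 6731 genes with a clear feature. Under the second it was found for 4 of 16 (Itgae, Itgb1, Itgb1bp1 and Itgb6), against 13%. That 13% is uneven. As deposited, 10.8% of genes with a clear feature were below 0 on all 4 arrays and 2.24% above. The median of these genes lay below 0 on every array, at -0.20, -0.03, -0.02 and -0.10. Itgae and Itgb1bp1 were below, and Itgb1 and Itgb6 above, Itgb6 by only 0.02 on replicate 4. The median ratio of the 32 genes was -0.07 against -0.02 for all genes under the first reading, and -0.01 against -0.02 under the second. The smallest p of an exact test that flips the signs of 4 arrays is 0.125.

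**Figure D1:**
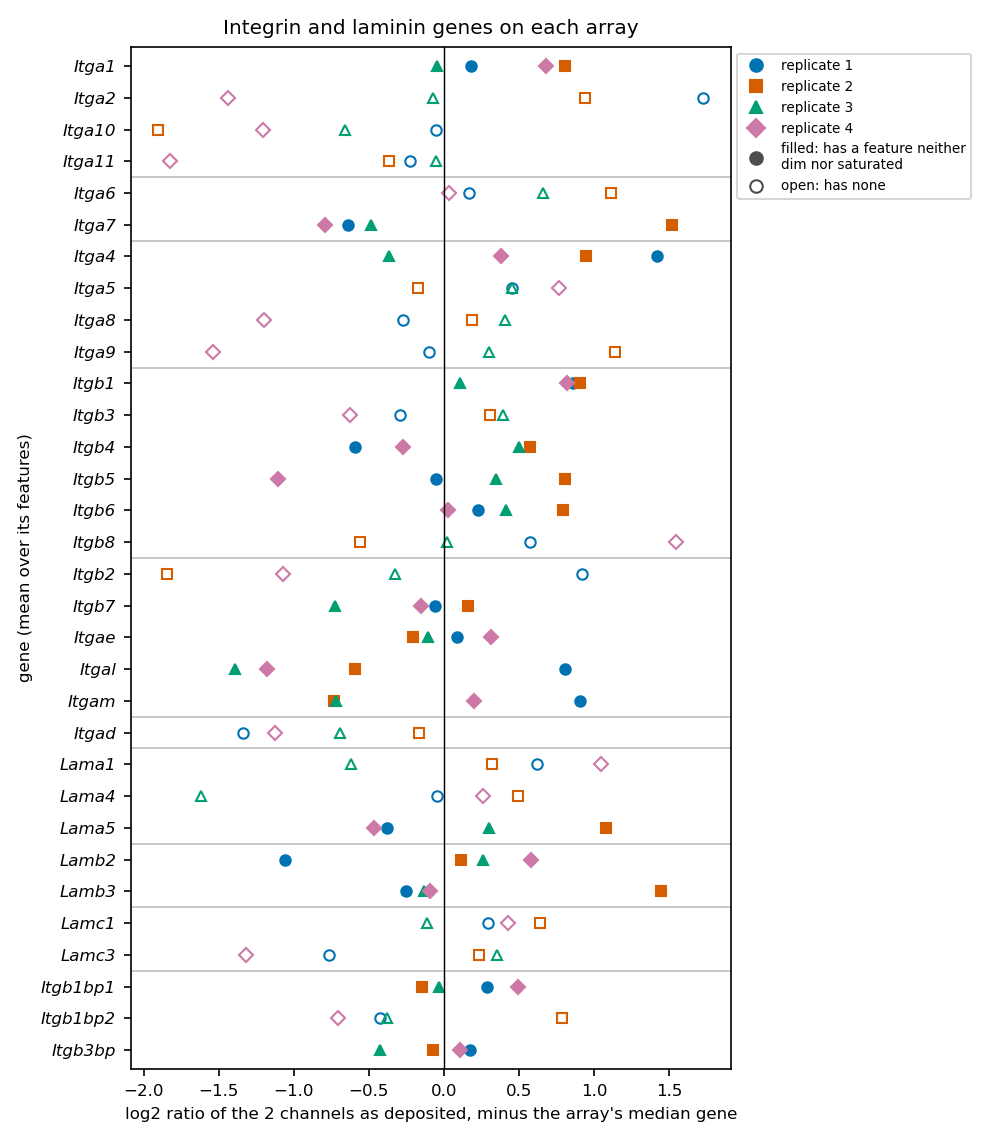
The 32 integrin and laminin genes by role, with the deposited log2 ratio minus the array's median gene on the horizontal axis and 1 symbol per array. For most genes the 4 arrays lie on both sides of 0; the Itgb1 symbols lie between 0.11 and 0.90, and Lamb3 and Itga7 stand out on replicate 2 at 1.45 and 1.52.

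The beta chains gave the best measured value of the set. Itgb1, the common partner of the collagen, laminin and fibronectin binding alpha chains, had ratios of 0.86, 0.90, 0.11 and 0.82. Its value rests on 10 features of the same transcript, all clear, whose SD within an array was 0.11 to 0.14. After centring, the 10 features ran from -0.05 to 0.34 on replicate 3. They did not overlap those of the other arrays, the lowest of which was 0.68. The features of an array share its offset and are not replicates, and the distance between arrays depends on centring. Without centring, the Itgb1 means on replicates 1 to 4 were 0.65, 0.86, -0.00 and 0.27. The SD of the centred ratios between arrays, which includes the spread between animals, was 0.38. Read as Cy5 over Cy3, the centred ratios cancel to a mean of -0.19 ± 0.84 (SD, n = 4). Read as already turned, the mean is 0.67 ± 0.38 (SD, n = 4). The second mean has a limma unadjusted p of 0.0357 and an adjusted p of 0.9989. The mean absolute ratio of Itgb1, 0.67, exceeded that of 84.4% of genes with a clear feature.

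Itgb6, the partner of alphav on epithelium, was also above the median gene on every array, at 0.22, 0.79, 0.41 and 0.02. The value on replicate 4 thus lies next to the median gene. With the trend over the slide removed, the Itgb6 mean read as Cy5 over Cy3 went from -0.04 to 0.21. Whether its sign on replicate 4 holds without that trend was not tested. Itgb4, the chain of the hemidesmosome, had -0.59, 0.57, 0.50 and -0.28. Itgb5, another partner of alphav, had -0.68, 0.99, 0.32 and -0.54 in its clear feature. Itgb4 and Itgb5 were thus below the median gene on replicates 1 and 4 and above it on replicates 2 and 3. Over both of its features, Itgb5 was -0.05, 0.81, 0.35 and -1.11. Itgb3, the vitronectin receptor and platelet chain, and Itgb8, which also activates TGF-beta, had no measured feature. Their listed ratios were -0.29 to 0.39 on replicates 1 to 3 and -0.62 on replicate 4 for Itgb3, and -0.56 to 1.55 for Itgb8.

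**Figure D2:**
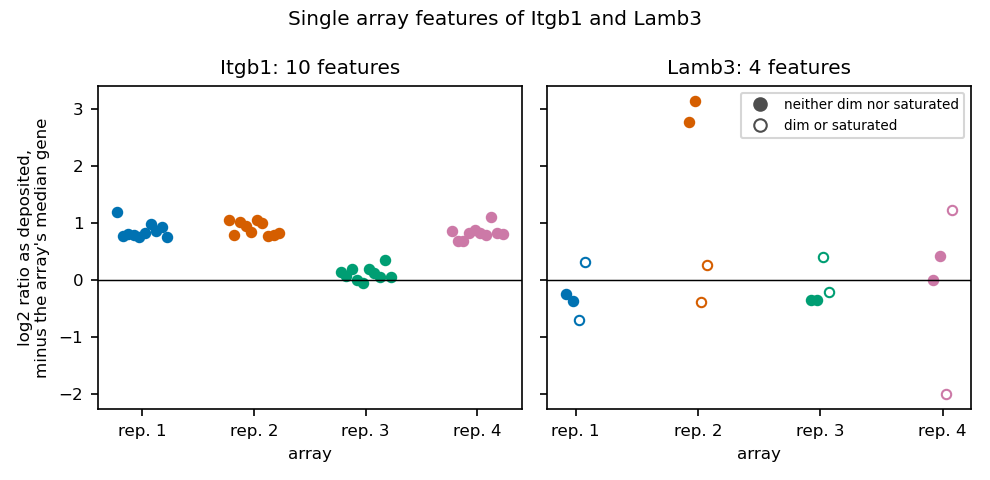
Single array features of Itgb1 (left) and Lamb3 (right) on the 4 arrays, as log2 ratio minus the array's median gene, with filled points for features neither dim nor saturated. The 10 Itgb1 features stay within 0.44 of each other on each array, whereas on replicate 2 the clear Lamb3 features are at 2.77 and 3.14 and the dim ones at 0.26 and -0.38.

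Among the collagen-binding alpha chains, Itga1, found on mesangial, smooth muscle and activated T cells, was the 1 of 4 with a clear feature. Its ratios were 0.18, 0.81, -0.05 and 0.68, so replicates 2 and 4 were high and replicates 1 and 3 near the median gene. Its mean was -0.34 ± 0.48 (SD, n = 4) read as Cy5 over Cy3 and 0.40 ± 0.40 (SD, n = 4) as deposited. Itga2, a platelet and epithelial collagen receptor, ran from -1.44 on replicate 4 to 1.73 on replicate 1. Itga10 and Itga11, known mainly from cartilage and fibroblasts, had no measured feature and were listed below the median gene on all 4 arrays.

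Of the laminin-binding alpha chains, Itga7, known from muscle, had a clear feature at -0.71, 1.22, 0.42 and -0.31. With its dim feature included, replicate 3 became -0.49 and replicate 4 -0.80. Itga6, the partner of beta4 in the hemidesmosome, averaged 0.17, 1.11, 0.66 and 0.03 over 4 features without a clear one. On replicate 3 those features ranged from -1.14 to 2.94, so the positive mean on every array lies within the error of its features.

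The other alpha chains are receptors of fibronectin, VCAM-1, tenascin and nephronectin. Itga4, which binds VCAM-1 and fibronectin and is carried by lymphocytes and monocytes, had 1.42, 0.95, -0.37 and 0.38. Replicate 3 was the single array below the median gene. Its means were -0.07 ± 1.03 (SD, n = 4) read as Cy5 over Cy3 and 0.60 ± 0.77 (SD, n = 4) as deposited, with adjusted p of 0.9998 and 0.9989 (limma). Its counter-receptor Vcam1, which appears on inflamed endothelium, had -0.85, -0.01, 0.25 and -1.28. Itga5, the fibronectin receptor, Itga8, which binds nephronectin on mesangial cells, and Itga9, a tenascin receptor, had no clear feature. Their ratios ran from -0.17 to 0.77, from -1.20 to 0.40 and from -1.54 to 1.14. The 4 features of Itga5 ranged from -1.41 to 1.69 on replicate 4.

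The leukocyte integrins differed among themselves. Itgal, the alpha chain of LFA-1, had 0.39, -0.31, -0.45 and -0.75 in its clear feature and 0.81, -0.60, -1.39 and -1.18 over both of its features. Itgam, the alpha chain of Mac-1 on monocytes, macrophages and neutrophils, had 0.91, -0.74, -0.72 and 0.20. Both were above the median gene on replicate 1 and below it on replicates 2 and 3, and they parted on replicate 4. Itgb2, the shared beta chain, was listed at 0.92, -1.85, -0.33 and -1.07 without a measured feature on any array. It had the largest mean of the 32 under the first reading, 0.88 ± 0.90 (SD, n = 4), with an unadjusted p of 0.0635 and an adjusted p of 0.9998 (limma). Itgad was listed below the median gene on all arrays, from -1.34 to -0.17, without a clear feature.

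Itgae, the alpha chain of the receptor for E-cadherin, had -0.38, -0.22, -0.66 and -0.43 in its clear feature. It was thus below the median gene on every array, as were 10.8% of genes with a clear feature. Its other feature had 0.55, -0.19, 0.45 and 1.06, which brought the gene's mean over both to between -0.20 and 0.31. Itgb7, the beta chain of that receptor and of the gut-homing alpha4beta7, had -0.06, 0.16, -0.73 and -0.15. The partners Itgae and Itgb7 thus shared low values on replicate 3 and differed in sign on replicate 2. Cdh1, which encodes E-cadherin, had -1.27, 0.84, 1.07 and -0.40 in clear features. Over all its features its mean absolute ratio was 0.57, against 0.89 in clear features.

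Values of the markers of cell types that carry these chains are set beside them here. The median of the T cell markers (Cd3 chains, Cd2, Lck and others; 9 of 12 with a clear feature) was 0.67, -1.61, -1.36 and -1.43, which has the signs of Itgal on 4 of 4 arrays. Of genes with a clear feature, 10.3% have these signs. Other chains of lymphocytes matched the T cell signs on fewer arrays: Itgae on 3, Itgb7 on 2 and Itga4 on 2. Itgb7 instead had the signs of the median of the smooth muscle and mesangium markers (3 of 5) on all 4, as did 5.87% of genes with a clear feature. Itgb7 itself was only -0.06 on replicate 1. Of those markers, Des had the opposite sign on replicates 1 and 2, at 0.32 and -0.22. The median of the monocyte and macrophage markers (8 of 11) was 0.50, -0.50, -1.06 and 0.02, the signs of Itgam and of the centromere protein gene Itgb3bp. These signs are held by 7.40% of genes with a clear feature, and on replicate 4 only 4 of the 8 markers were above the median gene. The neutrophil markers, of which 2 of 6 had a clear feature, were at 0.90, 1.19, -1.97 and 1.75 and differed from Itgam in sign on replicate 2. Itga1 and Itga4 had the signs of these neutrophil markers, as did 4.59% of genes with a clear feature. Both also matched the macrophage signs on 3 arrays. How much of the ratios of Itgal and Itgam goes with the share of these cells in a graft slice was not tested.

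The laminins gave values of the basement membrane side. Lamb3, the beta chain of laminin-332 of epithelia, had -0.31, 2.95, -0.36 and 0.20 in its 2 clear features, which differed by at most 0.42 on an array. Replicate 2 stood far above the other arrays. Read as Cy5 over Cy3, all 4 arrays fall below the median gene, with a mean of -0.96 ± 1.33 (SD, n = 4) and an adjusted p of 0.9998 (limma). The shared sign is that of the mean of the 2 clear features, which on replicate 4 were -0.01 and 0.42 as deposited. Read as already turned, the mean is 0.62 ± 1.58 (SD, n = 4). The mean absolute ratio, 0.96, exceeded that of 92.5% of genes with a clear feature and rests on replicate 2. Over all 4 of its features Lamb3 was -0.25, 1.45, -0.13 and -0.10, so replicate 4 turns to above the median gene under the first reading.

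Lamb2, the beta chain of the laminin-521 of the glomerular basement membrane, had -0.95, 0.50, 0.22 and -0.12 in its clear feature. Over both of its features replicate 4 became 0.58. Lama5, the alpha chain of the same laminin, had -0.20, 1.06, 0.32 and 0.08 in its 2 clear features. Over all 4, of which 1 had no value on replicates 2 and 4, replicate 4 became -0.47. These partners shared their sign on replicates 1 to 3 in clear features. Lamc1, the gamma chain of that laminin and of most others, was 0.29, 0.64, -0.12 and 0.42 over 4 features of which none was clear. Their SD on replicate 4 was 1.59. Lama1, the alpha chain of early epithelial basement membranes, Lama4, of vessels, and Lamc3 also had no clear feature. Lama1 ran from -0.62 to 1.04 and Lamc3 from -1.32 to 0.35. Lama4 was listed at -0.05, 0.49, -1.62 and 0.26, which gives a mean of -0.60 ± 0.70 (SD, n = 4) under the first reading. No other gene of the 32 was below the median gene on all 4 arrays under that reading in the mean over all features, and Lama4 was measured on none of them.

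Itga7, Itgb4, Itgb5 and Lamb2 shared signs on all 4 arrays in their clear features, below the median gene on replicates 1 and 4 and above it on replicates 2 and 3. This arrangement was found in 17.3% of genes with a clear feature. The median of the proximal tubule markers (8 of 9 with a clear feature) had the same signs, at -1.90, 2.14, 1.49 and -0.63. On replicate 4, 3 of these 8 markers were above the median gene. The endothelial markers, of which 3 of 6 had a clear feature, had them too, at -1.09, 0.60, 0.12 and -1.24. So did the median of the podocyte markers, of which 2 of 5 had a clear feature, at -1.26, 0.19, 1.35 and -1.52. On replicate 2 those 2 differed in sign, with Nphs1 at -0.20 and Podxl at 0.58. The part of these markers in the ratios of the 4 chains was not tested.

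**Figure D3:**
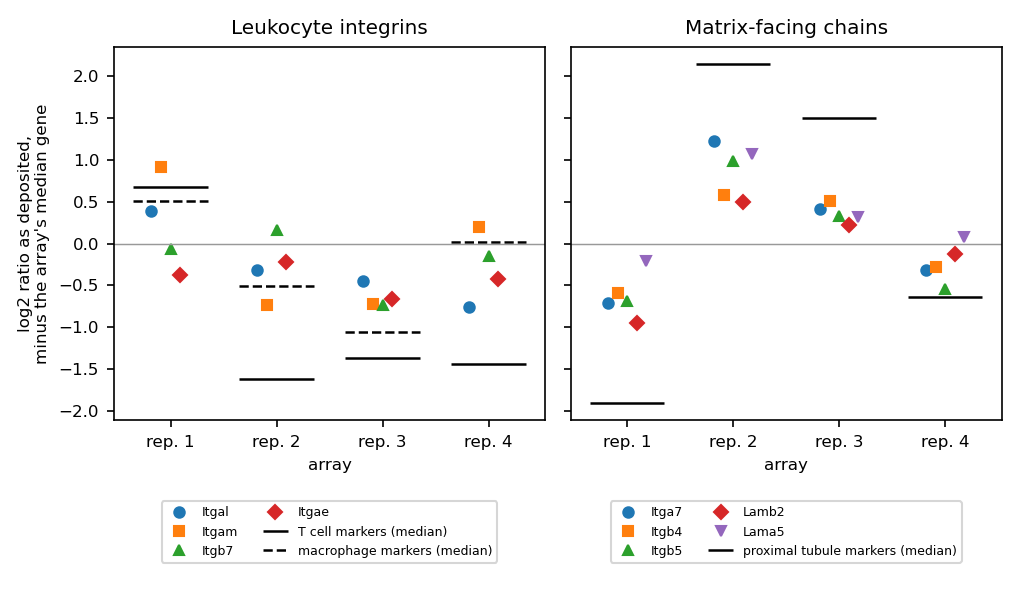
Clear-feature log2 ratios, minus the array's median gene, of 4 leukocyte integrins (left) and 5 matrix-facing chains (right) on the 4 arrays, with horizontal lines at the median of the marker genes of 3 cell types. Itgal lies on the side of the T cell markers on each array, as do 10.3% of genes with a clear feature, and Itga7, Itgb4, Itgb5 and Lamb2 on that of the proximal tubule markers, as do 17.3%. The macrophage median on replicate 4, at 0.02, lies at the median gene.

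Of the 3 genes matched by symbol alone, 2 had a clear feature. Itgb1bp1 encodes ICAP-1, which binds the beta1 tail and keeps the integrin inactive. Its clear feature was between -0.22 and -0.00 on the 4 arrays, and the mean absolute ratio of that feature, 0.09, was above that of 1.34% of genes with a clear feature. Over both of its features Itgb1bp1 was 0.29, -0.15, -0.03 and 0.50, with a mean absolute ratio of 0.24. Itgb3bp, a centromere protein, had 0.18, -0.07, -0.43 and 0.11. Itgb1bp2, the muscle protein melusin, had none and ran from -0.70 to 0.79.

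**Figure D4:**
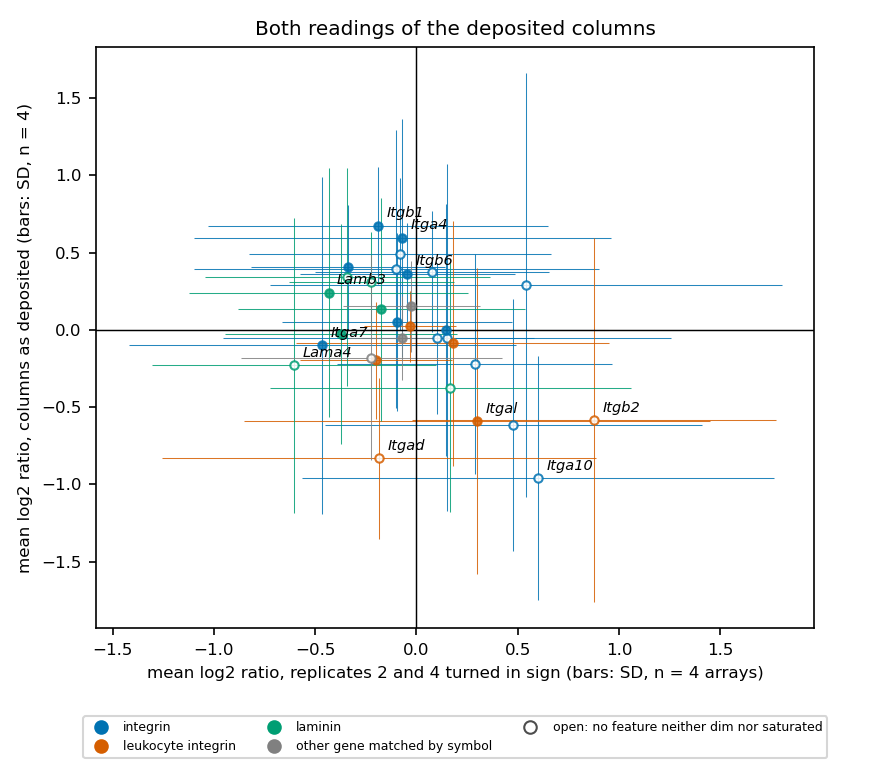
Mean log2 ratio of the 32 genes read as Cy5 over Cy3 (horizontal) and as already turned (vertical), with bars for the SD over 4 arrays and open symbols for genes without a clear feature. Most bars cross 0 on both axes, and Itgb1 lies at -0.19 and 0.67.

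A list of 21 ligands of the integrins was measured for 19, and 0 passed the test in either direction under either reading. Their median was -0.24 read as Cy5 over Cy3 and 0.14 read as already turned, against -0.02 for all genes under both. These medians use all features, whereas the gene values that follow are from clear features, which 12 of the 19 have. Vwf and the chains of fibrinogen, which Mac-1 and the platelet integrin bind, were named for having the largest clear ratios of the list. Fga had 0.85, 2.17, 0.79 and 1.17, and Fgb had 0.97, 1.19, 0.78 and 2.39 in clear features. Over all its features Fgb averaged 0.39 as deposited. Fgg had 1.38, -0.54, 1.43 and 1.31, below the median gene on replicate 2 alone. Fn1, fibronectin, had 0.11, 0.64, -0.63 and 0.46. Icam1, the ligand of LFA-1 and Mac-1, stayed between -0.67 and 0.18. Vwf, the endothelial and platelet adhesion protein, ran from -1.14 on replicate 1 to 2.50 on replicate 2. Over all its features its mean absolute ratio was 0.59, against 1.40 in clear features. Vtn, Spp1, Tnc and Madcam1 had no clear feature.

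The basement membrane partners of the laminins were measured for 15 of 18, and 0 passed the test. Their median over all features was -0.20 and 0.01 under the first and second reading. The gene values that follow are from clear features, which 9 of the 15 have. Col4a4, a collagen chain of the glomerular basement membrane, had -1.68, 0.91, 2.99 and -1.38. Bcam, a receptor of laminin alpha5, had -1.76, 1.27, 0.47 and -1.16. Col4a5 was also low on replicate 1, at -1.55, with 0.76, 0.79 and -0.07 on the others. Agrn, the heparan sulphate proteoglycan of that membrane, had -0.66, 0.31, 0.71 and 0.07. Dag1, dystroglycan, ran from -0.71 to 0.38, and Col4a1, of all basement membranes, from -0.21 to 0.50. Nid1, Hspg2 and Col4a3 had no clear feature.

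The proteins that activate integrins and join them to actin were measured for 27 of 29, and 0 passed the test. Their median over all features was -0.11 and 0.04 under the first and second reading. The gene values that follow are from clear features, which 18 of the 27 have. Fermt3, the kindlin of blood cells, had 0.23, -0.79, -0.91 and -0.22. Apbb1ip, which recruits talin to integrins in leukocytes, had 0.61, -0.37, -1.60 and 0.38. Over all its features it averaged 0.11 as deposited, with a mean absolute ratio of 0.28, against 0.74 in clear features. Ptk2, focal adhesion kinase, had -1.09, 0.39, 0.76 and -0.22. Fermt2, the kindlin of most other cells, ran from -0.71 to 0.66. Vcl, vinculin, was below the median gene on replicate 1 alone, at -0.21, and at 0.57 to 0.80 on the others. Over all its features its mean absolute ratio was 0.39 and its mean under the first reading -0.39. Replicate 3 was thus not above the median gene for Vcl over all features. Ilk, the integrin-linked kinase, had -0.82, -0.08, 0.16 and 0.95. Lims1, its partner, was highest on replicate 1, at 0.56, and lowest on replicate 2. Tln1, talin, had no clear feature.

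Sizes regardless of direction can be read without settling the sign. The median over the 32 genes of the mean absolute ratio was 0.58, against 0.56 for all 14871 genes. In clear features it was 0.46 for the 16 members that have one, against 0.33 for all 6731 such genes. After Lamb3, the members with the largest clear ratios were Itga4 at 0.78, Itgb1 at 0.67, Itga7 at 0.66, Itgam at 0.64 and Itgb5 at 0.63. Neighbours in this order differ by less than the spread of any of them over the arrays, whose smallest SD among these 5, as deposited, was the 0.38 of Itgb1.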

How the data were processed

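The deposited table holds 1 column per array, read as log2 ratios of the channels; the scanner, background correction, normalization, log base and direction have no statement in the labels, and RNA was labelled with an Agilent 2-colour kit per the labels' protocols. Values reach 11.3 in size. The platform annotation gave 1 gene symbol for 25353 of the 45220 features, several for 48 and none for 19819; 25306 gene numbers matched RefSeq's GRCr8 table and 1 symbol was updated. A gene's value is the mean over its features, minus the array's median gene (offsets -0.22, -0.04, -0.11 and -0.55). Replicates 2 and 4 were turned in sign, and the mean over 4 arrays was tested against 0, two-sided, by lmFit and eBayes of limma 3.58.1 (R 4.3.3), threshold 0.05; the test was first tried on simulated data. Each array pairs both peptides, so its error is the spread over the 4 pairs, and having only 4 arrays limits its precision. Clear features were found from repeated values: at most 2 features share the value on each array. They were put on the same offsets. The members and the 22 gene lists were chosen with earlier results of these data known, and the criterion for clear features was set after seeing them. Every matched gene was named. Of the ligand, partner and adhesion lists, the text names a set written with the lists and up to 4 more of each with the largest mean absolute ratio among genes with a clear feature; Npnt, of that set, was not analysed here, nor were Itgav, Itga3, Itga2b, Itgax, Lama2, Lama3 and Lamb1. The alternatives were the columns as deposited, a dye term, no centring, clear features, removal of a trend over the slide, scaled arrays, array weights, medians over features, single features and leaving out each replicate. Control features and scan dates were not used.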

Additional observations from a re-analysis of the deposited data

Results flagged for a closer look

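Each of the 32 genes was examined for an array standing apart from the other 3, by Dixon's ratio of the gap to the range, under both readings of the sign. Chance flags about 1 in 20 such groups, which is 3.2 over all of them, and 3 were found, all in the values as deposited. Itgb1 was 0.11 on replicate 3, below 0.82 to 0.90 on the other arrays, a gap that falls below the critical value without centring or with the trend over the slide removed. Lamb3 was 1.45 on replicate 2, above -0.25 to -0.10 on the others; without centring its gap was 0.80 of the range, also below the critical value. Itga7 was 1.52 on replicate 2, above -0.80 to -0.49 on the others; in its clear feature alone, replicate 3 was 0.42. The cause was not tested.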

How the results depend on the processing

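In the alternatives run, 0 genes and 0 members were called (limma); at an unadjusted p under 0.05 the first reading reached 546 genes and the second 492, and the lowest adjusted p of any gene over the alternatives was 0.894, without replicate 3. The sign of a member's mean, never called, is set by the reading: 23 of 32 changed sign with the columns as deposited, and 6 of them moved by over 1 SD. The sign changed for 0 with a dye term, 3 without centring, 2 with the slide trend removed and 3 with scaled arrays. It changed for 1 of 16 in clear features (Itgb5, from 0.15 to -0.20), 7 with array weights and 1 with medians over features. Scaled arrays were divided by their own median absolute deviation and not put back on the log2 scale. In those units Itgb2 was 1.91 and Lama4 -1.51, which cannot be set against their log2 means. Leaving out replicates 1, 2, 3 and 4 in turn changed the sign for 4, 7, 3 and 10. The test of the ratio within each array is itself paired, so no further replicate block applies. Dim features limit 16 of the 32 genes, for which no clear feature exists.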

Other observations

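Replicate 3 stood apart for Itgb1 when the arrays were centred, with a gap of 0.90 of the range, but not past Dixon's critical value under other offsets. Without centring, Itgb1 was 0.65, 0.86, -0.00 and 0.27 on replicates 1 to 4 as deposited, with a mean of 0.44 ± 0.38 (SD, n = 4) and a gap of 0.32 of the range. With the trend over the slide removed it was 0.89, 0.92, 0.08 and 0.62, with a mean of 0.62 ± 0.39 (SD, n = 4) and a gap of 0.64 of the range. Replicate 3 was the lowest each time.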
